A study of Mus musculus with 20 samples.

Results

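CD4+ T cells cultured for 4 days under Th1 conditions were compared with the cells from which such cultures were started, across all protein-coding genes. The comparison used 4 of the 20 RNA-seq libraries of the series, 2 of WT Th1 cultures and 2 of WT naive cells, chosen by their labels alone. All of these cells came from spleen and peripheral lymph nodes of mice that carried the CD4-driven Cre recombinase without floxed alleles, which the labels call WT, so the Cre is shared by both groups. The naive libraries are the isolated CD4+ starting population. The labels give no further gate for naivety and no age, sex or strain. They also do not say whether the 2 libraries of a group came from separate animals. The p-values thus measure only the spread between libraries of a group, estimated over all 10 groups of the series. Th1 cultures received plate-bound anti-CD3 and anti-CD28 at 1 µg/ml each, IL-2 and IL-12 at 10 ng/ml each, and 10 µg/ml of anti-IL-4, and viable CD4+ cells were sorted at the end. For side-by-side values, WT Th2 cultures (the same stimulation, with IL-2 and IL-4 at 10 ng/ml each and 10 µg/ml of anti-IFN-γ) and naive and Th1 cells of CD4Cre+ mice with floxed DOT1L alleles (KO) were used, 2 libraries each. DOT1L is the enzyme that methylates lysine 79 of histone H3. None of the libraries compared here received a compound. The series also holds KO Th2 cultures. It further holds WT Th1 and Th2 cultures with a control compound (SGC0649) or a DOT1L inhibitor (SGC0946), each at 1 µM. Those libraries entered only the gene filter, the scaling and the estimate of the spread.

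A naive CD4+ T cell recirculates between blood and lymphoid organs in a resting state held by transcription factors such as KLF2, FOXO1 and TCF7. Stimulation through the T cell receptor and CD28 drives growth and division. IL-12, acting through STAT4, and interferon-γ induce T-bet (Tbx21) and with it the Th1 program of interferon-γ (Ifng) and chemokine receptors for inflamed tissue. Stimulation, cytokines, time in culture and the sort for viable cells all differed together between the groups, and their parts cannot be told apart.

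Of 13072 genes tested, 8791 (67.3%) differed between WT Th1 and WT naive at an adjusted p under 0.05 in edgeR's quasi-likelihood test with Benjamini-Hochberg adjustment, and these are referred to as called. Of these, 4480 genes (34.3% of those tested) were higher in Th1 cultures and 4311 (33%) were lower. By the fitted fold, a change of at least 2-fold was called for 2397 genes upward (18.3%) and 1959 genes downward (15%); for genes at 0 in a group the fitted fold is no bound. The median log2 fold change over all genes tested was 0.0037 and the middle 50% of genes lay between -0.64 and 0.76; the scaling sets the centre near 0, so the values are relative and do not measure total RNA. The values of the libraries did not overlap between the groups for 11233 genes (85.9%). Counts of called genes in the lists below, and genes whose libraries did not overlap, are read against these shares. Most genes named below were picked among called ones, so a lack of overlap adds no support for them.

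**Figure D1:**
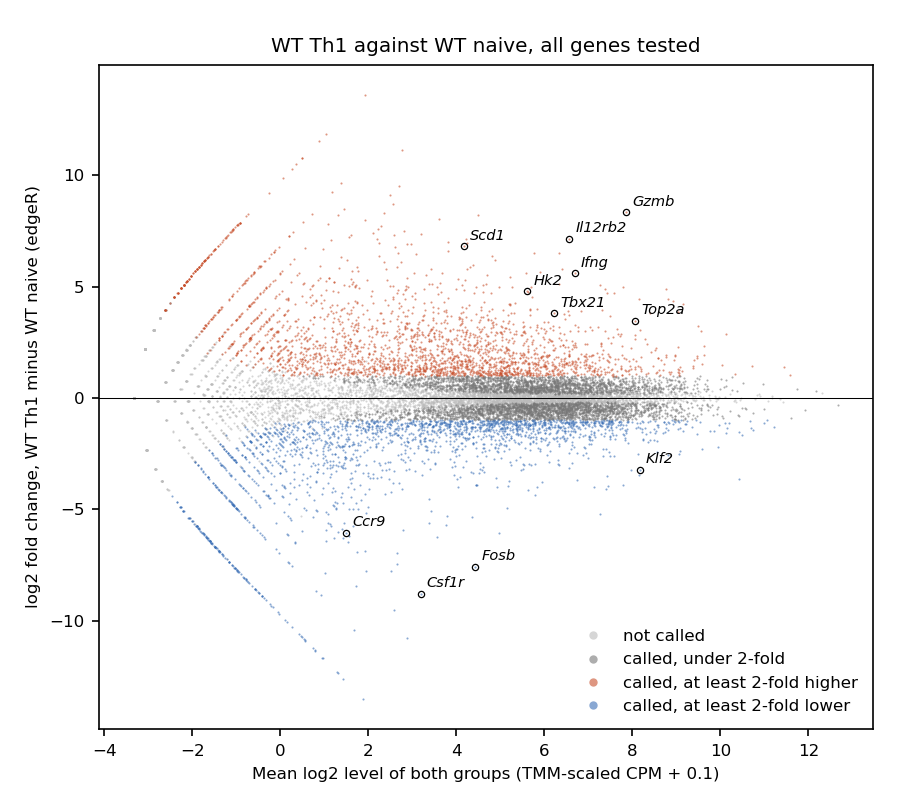
Each point is one of the 13072 protein-coding genes tested, with its mean log2 level in the 4 libraries on the x axis (TMM-scaled CPM plus 0.1) and its log2 fold change, WT Th1 minus WT naive, on the y axis. In it, the 2397 genes called at least 2-fold higher are red and the 1959 called at least 2-fold lower are blue; the diagonal edges at the left are genes with 0 counts in a group, whose fitted fold change is not a bound.

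The 4 libraries held 10140069 and 11256671 protein-coding counts in naive cells and 12020679 and 12274847 in Th1 cultures. Reads outside annotated features made up 15.5% and 14.3% of alignments in naive cells and 10.4% and 10.3% in Th1 cultures. Levels below are CPM (counts relative to library size) scaled by TMM, always given for replicate 1 and then replicate 2 of a group; differences are log2 fold changes, Th1 minus naive, with the standard error (SE) of the fit, and n = 2 libraries per group throughout. The replicates of a group differed by more than counting error in both groups. In RNA from a population of cells, fewer cells that hold a transcript and less of it per cell cannot be told apart.

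The marker genes of Th1 cells were high in the cultures. Ifng, the signature cytokine of Th1 cells (chr10:118441047-118445892, plus strand, GRCm38), had 16.8 and 12.8 CPM in naive cells and 727 and 700.1 CPM in Th1 cultures. Its log2 fold change was 5.60 ± 0.32 (edgeR adjusted p = 2.05e-09). Tbx21, which encodes the Th1 regulator T-bet (chr11:97098071-97115331, minus strand), had 22.5 and 17.7 CPM in naive cells and 287 and 272 CPM in Th1 cultures, a log2 fold change of 3.80 ± 0.15 (edgeR adjusted p = 1.98e-12). Both genes were many times higher in each Th1 library than in each naive library. Cd4, by which the cells were isolated and sorted, had 981 and 989.6 CPM in naive cells and 1049.5 and 1007 CPM in Th1 cultures and was not called (edgeR adjusted p = 0.645). Of 14 genes that T cells share, 6 were called higher and 2 lower with a median of 0.13, and none of these calls reached 2-fold. Thy1, a surface protein of all mouse T cells, had 538 and 552 CPM in naive cells and 1016 and 949 CPM in Th1 cultures. The lower ones were Lat, an adaptor of the T cell receptor, and Cd247, its zeta chain; without either naive library or without Th1 replicate 2 the count of lower ones was 1.

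**Figure D2:**
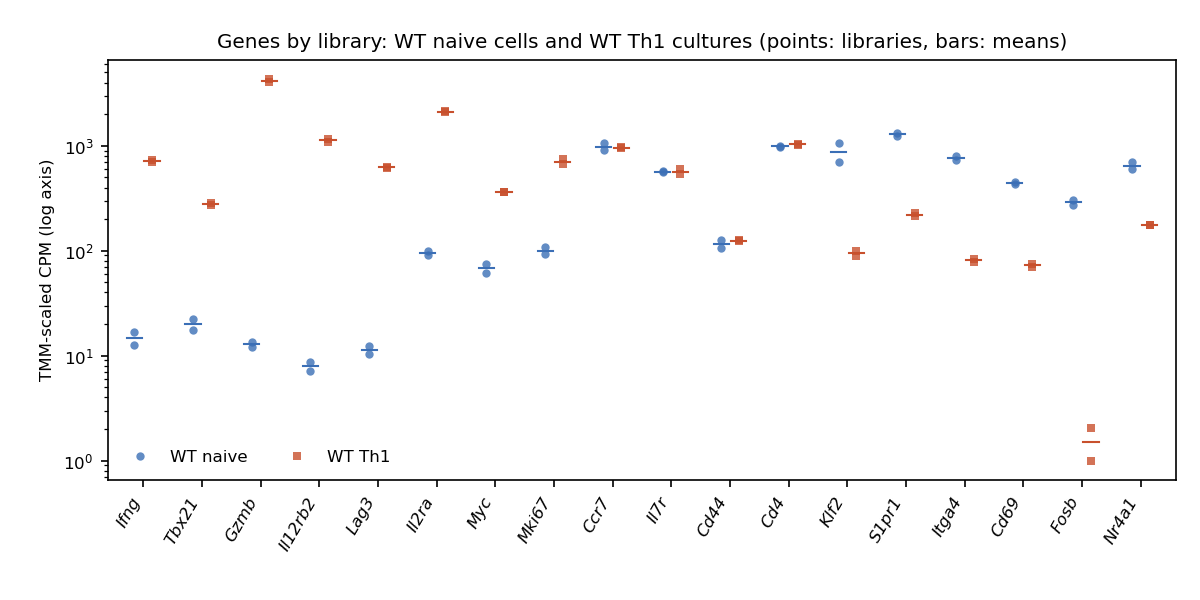
TMM-scaled CPM on a log axis for 18 genes, with blue circles for the 2 WT naive libraries, red squares for the 2 WT Th1 libraries and short bars for their means. Ifng, Tbx21, Gzmb, Il12rb2, Lag3, Il2ra, Myc and Mki67 are far higher in both Th1 libraries, Cd4, Ccr7, Il7r and Cd44 stand at similar levels in both groups, and Klf2, S1pr1, Itga4, Cd69, Fosb and Nr4a1 are lower in both Th1 libraries.

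Most of the Th1 program rose. Of 23 tested members, 20 were called higher and 1 lower, beside 34.3% and 33% of all genes, and their median log2 fold change was 3.13 beside 0.0037 over all genes. The lists were chosen with earlier results in view, so the counts describe them and support nothing further. Among the transcription factors, Hlx, a homeobox factor that acts with T-bet, had 0.295 and 0.449 CPM in naive cells and 50.3 and 44.3 CPM in Th1 cultures (log2 fold change 6.93 ± 0.37, edgeR adjusted p = 1.71e-10). Twist1, a factor induced in Th1 cells, was at 0 in both naive libraries and at 2.12 and 1.41 CPM in Th1 cultures, at least 12.5-fold higher when the naive group is set at 3 counts in all. Runx2 and Prdm1 are not in the Th1 program but in a list of 30 T cell lineage transcription factors. Of these 30, 13 were called higher and 10 lower (median 0.24), near the shares over all genes. Runx2, of the runt family of factors, rose from 19.2 and 14.3 CPM to 125 and 114 CPM. Prdm1 (Blimp-1, a repressor in effector cells) rose from 15.7 and 16.8 CPM to 96.2 and 95.1 CPM. Tox, of the same list of 30, fell from 65.4 and 74.99 CPM to 16.05 and 16.6 CPM. Hlx, Twist1, Runx2 and Prdm1 were each higher in both Th1 libraries than in either naive library.

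The receptors for IL-12 and IL-18, the cytokines that sustain interferon-γ production, rose with these factors. Il12rb2, the signalling chain of the IL-12 receptor (chr6:67291318-67376188, minus strand), had 8.64 and 7.19 CPM in naive cells and 1162 and 1088 CPM in Th1 cultures, a log2 fold change of 7.15 ± 0.15 (edgeR adjusted p = 1.8e-15). Il12rb1, the chain it pairs with, had 24.7 and 22.5 CPM in naive cells and 215 and 198 CPM in Th1 cultures (3.13 ± 0.14, edgeR adjusted p = 7.39e-12). Il18rap, of the IL-18 receptor, rose from 52.3 and 36.6 CPM to 230.2 and 228 CPM. For interferon-γ itself, a receptor chain moved the other way. Ifngr2, the signalling chain of the interferon-γ receptor, had 191 and 218 CPM in naive cells and 12.7 and 10.8 CPM in Th1 cultures, a fall of 4.11 on the log2 scale (edgeR adjusted p = 3.72e-13). Of 20 genes of IL-12, IL-6 and interferon reception and signalling, 11 were called higher and 6 lower. Il6ra, the IL-6 receptor that naive cells carry, fell from 385 and 412 CPM to 66.4 and 62.3 CPM, a log2 fold change of -2.63 ± 0.13 (edgeR adjusted p = 2.23e-11).

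Chemokine ligands and receptors of effector cells each had risers and fallers. Of 10 chemokine ligands, 6 were called higher and 2 lower. The lower ones were Cxcl9 and Cxcl16; 1 was called lower without naive replicate 1, and 0 with DESeq2 or without naive replicate 2, Th1 replicate 1 or Th1 replicate 2. Ccl3 and Ccl4, which attract T cells and monocytes, were the steepest risers. Ccl3 rose from 3.83 and 4.31 CPM to 97.6 and 115 CPM. Ccl4 rose from 6.18 and 5.03 CPM to 252 and 230.1 CPM. Of 12 effector chemokine receptors, 5 were called higher and 7 lower. Ccr9, the receptor that directs T cells to the gut, had 22.1 and 18.2 CPM in naive cells and 0.425 and 0.165 CPM in Th1 cultures (-6.05 ± 0.48, edgeR adjusted p = 1.04e-08). Ccr3, known from eosinophils, fell from 22.9 and 19.8 CPM to 1.61 and 1.41 CPM. Cxcr3, commonly used as a surface marker of Th1 cells, was lower in the Th1 cultures, with 30.5 and 24.6 CPM in naive cells and 14.1 and 16.3 CPM in Th1 cultures and a log2 fold change of -0.86 ± 0.24 (edgeR adjusted p = 0.0045). It was the member of the Th1 program called lower. Its groups did not overlap, but without naive replicate 1 its adjusted p was 0.0513 and the program had 0 lower members; without Th1 replicate 2, and with limma, the program had 2.

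Cytotoxic genes, best known from CD8 T cells and NK cells, rose in these CD4+ cultures. Of 18 tested, 14 were called higher and 1 lower, with a median log2 fold change of 3.14. Gzmb, granzyme B, a serine protease of killer cell granules (chr14:56258856-56262260, minus strand), had 13.4 and 12.1 CPM in naive cells and 4050.2 and 4316 CPM in Th1 cultures, a log2 fold change of 8.35 ± 0.20 (edgeR adjusted p = 7.54e-15). Per kilobase of deposited gene length it reached 2949.9 CPM in Th1 cultures, from 9.02 in naive cells. This placed it among the 8 highest genes of the cultures on that scale, among genes with counts. Gzmc rose from 1.08 and 1.26 CPM to 144 and 162 CPM. Gzmd was at 0 in both naive libraries and reached 15.5 and 12.7 CPM, at least 100.4-fold higher with naive cells set at 3 counts. Gzme was at 0 there too and reached 9.93 and 11.6 CPM, at least 76.5-fold higher. These granzymes are close copies of each other and multimapping reads were left uncounted, so their separate values are uncertain. Gzmm fell from 2.65 and 2.25 CPM to 0.509 and 0.91 CPM. Under RLE scaling, library totals, DESeq2, the replicate block, the contrast's libraries alone, or without naive replicate 2, 2 members were called lower.

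Cytokine genes other than Ifng rose too, including those that name other helper fates. Of 25 cytokine genes, 20 were called higher and 2 lower, with a median of 2.61, or 2.39 with genes at 0 in naive cells set at their bound. Csf1, the macrophage growth factor, had 7.56 and 6.11 CPM in naive cells and 368 and 305 CPM in Th1 cultures (5.62 ± 0.41, edgeR adjusted p = 2.88e-08). Il21, a helper cytokine for B cells, rose from 2.85 and 4.67 CPM to 181 and 169 CPM. Il13, a cytokine of type 2 immunity, rose from 0.589 and 0.539 CPM to 40.6 and 39.1 CPM. Il17a, the cytokine of Th17 cells, rose from 2.06 and 1.44 CPM to 31.1 and 19.6 CPM. In each of these cytokines both Th1 libraries exceeded both naive ones. Tnfsf11 (RANKL, which drives osteoclasts and lymph node formation) fell from 33.1 and 30.6 CPM to 3.23 and 3.64 CPM. The other called lower was Il16, whose call was lost without naive replicate 2 and without Th1 replicate 1, when the count of lower ones was 1.

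The lists that name other helper fates were mixed rather than uniformly lower. Of 23 Th2 genes, 15 were called higher than in naive cells and 5 lower (median 1.10), and 19 of the 23 were called lower in Th1 than in Th2 cultures. Il17rb, a receptor for IL-25, fell from 18.6 and 15.8 CPM to 0.255 and 0.248 CPM (-6.03 ± 0.47, edgeR adjusted p = 7.66e-09). Of 13 Th17 genes, 6 were called higher and 3 lower, and of 13 regulatory T cell genes 6 were higher and 5 lower. Foxp3, the master factor of regulatory T cells, had 98.95 and 108 CPM in naive cells and 24.9 and 24.5 CPM in Th1 cultures (-2.07 ± 0.16, edgeR adjusted p = 4.69e-09). Nrp1, carried by regulatory T cells from the thymus, fell from 59.00 and 60.3 CPM to 15.1 and 17.4 CPM. Tnfrsf18 (GITR), which activation also induces, rose from 68.1 and 68.4 CPM to 450.3 and 436 CPM. Foxp3 and Nrp1 were lower in both Th1 libraries, and Tnfrsf18 higher. Of 11 follicular helper genes, 4 were higher and 4 lower, near the shares over all genes. Icos, a costimulatory receptor, rose from 232 and 209 CPM to 743 and 698 CPM. Bcl6, the master factor of follicular helper cells, rose from 20.7 and 21.9 CPM to 57.6 and 55.3 CPM. Tox2 fell from 11.2 and 10.1 CPM to 1.27 and 1.32 CPM.

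Most genes of the naive state fell, while Ccr7 and Il7r, known as markers of resting cells, were not called. Of 18 naive and quiescence genes, 11 were called lower and 4 higher (median -1.10). Klf2, the factor that maintains quiescence and lymphoid trafficking (chr8:72319033-72321656, plus strand), had 693 and 1055 CPM in naive cells and 99.3 and 88.7 CPM in Th1 cultures (-3.22 ± 0.23, edgeR adjusted p = 1.39e-08). Its naive libraries differed from each other more than most, and still lay above both Th1 libraries. S1pr1, a target of KLF2 and the receptor that lets T cells leave lymph nodes (chr3:115710433-115715072, minus strand), had 1247 and 1313 CPM in naive cells and 228 and 214 CPM in Th1 cultures (-2.53 ± 0.11, edgeR adjusted p = 2.99e-12). Klf3, a related factor, fell from 189 and 187 CPM to 24.1 and 26.4 CPM. Dapl1 and Cd55 fell as well, the former from 66.6 and 63.1 CPM to 3.82 and 4.22 CPM. Tcf7, which encodes the stem-like and naive factor TCF-1, had 1874 and 1971 CPM in naive cells and 679 and 623 CPM in Th1 cultures (-1.56 ± 0.32, edgeR adjusted p = 0.000578). Of 16 genes of homing and egress, 9 were called lower and 3 higher (median -0.76).

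Ccr7, Il7r and Cd44, surface markers used to tell naive from activated cells, were not called. Ccr7, the chemokine receptor for lymph node entry, had 908 and 1056 CPM in naive cells and 947 and 967 CPM in Th1 cultures and was not called (-0.04 ± 0.15, edgeR adjusted p = 0.838). Il7r, the IL-7 receptor that supports resting T cells, had 560.1 and 572 CPM in naive cells and 594 and 538 CPM in Th1 cultures (0.00 ± 0.15, edgeR adjusted p = 1). Cd44, whose protein marks antigen-experienced cells, had 127 and 107 CPM in naive cells and 124 and 125 CPM in Th1 cultures (0.09 ± 0.20, edgeR adjusted p = 0.707). The libraries of the groups overlapped for Ccr7, Il7r and Cd44. Satb1, a chromatin organiser of T cells, rose from 860.3 and 917 CPM to 1948 and 1793 CPM. Igfbp4, which binds insulin-like growth factors, rose from 475 and 571 CPM to 974 and 968 CPM.

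Adhesion genes changed in opposite directions within their family. Itga4, the α4 integrin chain used for entry into gut and inflamed tissue, had 801 and 735 CPM in naive cells and 83.6 and 78.7 CPM in Th1 cultures (-3.24 ± 0.21, edgeR adjusted p = 4.04e-09). Itga3, of a laminin receptor, rose from 8.34 and 5.75 CPM to 96.9 and 89.6 CPM. Icam1, the ligand of LFA-1, rose from 47.1 and 47.2 CPM to 148 and 146 CPM. Of 20 integrin and adhesion genes, 9 were called higher and 7 lower. Cd69, an early activation marker that holds cells in lymph nodes, fell from 429.9 and 455 CPM to 74.3 and 70.2 CPM (-2.61 ± 0.24, edgeR adjusted p = 3.76e-07).

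Receptors for growth cytokines rose strongly. Il2ra, the high-affinity chain of the IL-2 receptor, had 91.5 and 100.3 CPM in naive cells and 2126 and 2097 CPM in Th1 cultures (4.46 ± 0.13, edgeR adjusted p = 4.94e-14). Il2rb, the signalling chain, rose from 414 and 391 CPM to 1609 and 1496 CPM. Jak3, the kinase that acts below these receptors, rose from 245 and 273 CPM to 1000.5 and 946 CPM. Of 11 genes of the common gamma chain family, 8 were called higher. The 2 called lower were Il9r and Il4ra. Il9r fell from 15.5 and 16.5 CPM to 0.255 and 1.57 CPM. Il4ra, the IL-4 receptor, fell from 965 and 1037 CPM to 827 and 778 CPM, and was no longer called without naive replicate 2 or without Th1 replicate 2, leaving 1. Of 12 genes of cytokine feedback, 7 were called higher and 3 lower. Socs1, an inhibitor of JAK kinases, rose from 19.3 and 27.1 CPM to 81.3 and 80.2 CPM. Cish, induced by STAT5, rose from 105 and 107 CPM to 363 and 352 CPM.

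Among costimulatory and inhibitory receptors, which adjust the response of an activated T cell, more were called higher than lower. In the main fit, those called lower were in the TNF receptor family. Of 15 genes of the TNF receptor family, 8 were called higher and 3 lower. Tnfrsf9 (4-1BB) had 31.7 and 30.00 CPM in naive cells and 892 and 908 CPM in Th1 cultures (4.87 ± 0.15, edgeR adjusted p = 5.59e-14). Tnfrsf8 (CD30) rose from 2.45 and 2.51 CPM to 148 and 126 CPM. Of 14 checkpoint genes, 10 were called higher and 0 lower by edgeR, as by DESeq2 and limma. At an unadjusted p under 0.05, 0 were lower, and 2 were called lower when the libraries of the contrast were fitted alone. Lag3, an inhibitory receptor that binds MHC class II, had 10.3 and 12.5 CPM in naive cells and 634 and 614 CPM in Th1 cultures (5.77 ± 0.15, edgeR adjusted p = 1.16e-14). Havcr2 (TIM-3), known from Th1 cells, rose from 1.47 and 1.35 CPM to 81.3 and 73.1 CPM. Pdcd1 (PD-1) rose from 9.23 and 9.52 CPM to 68.2 and 69.99 CPM.

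Signalling genes near the T cell receptor moved both ways, as did genes induced early after a stimulus. Of 24 receptor signalling genes, 8 were called higher and 9 lower, with a median of -0.07. These shares were near the 34.3% higher and 33% lower of all genes, so they do not set this list apart. Cblb, a ubiquitin ligase that restrains activation, rose from 177 and 174 CPM to 782 and 756 CPM. Malt1, a protease of the NF-κB pathway, rose from 233 and 226 CPM to 812 and 820.5 CPM. Rasgrp1, an activator of RAS, fell from 715 and 731 CPM to 244 and 239.9 CPM. Fos and Fosb encode subunits of AP-1 that are induced within minutes of a stimulus. Fosb had 304 and 275 CPM in naive cells and 2.04 and 0.993 CPM in Th1 cultures (-7.57 ± 0.22, edgeR adjusted p = 4.94e-14). Fos fell from 249 and 256 CPM to 13.7 and 10.7 CPM. Nr4a1, often used as a reporter of receptor signalling, fell from 598 and 698 CPM to 176 and 177 CPM. All 3 were lower in both Th1 libraries. Egr3 and Fosl1, which a stimulus also induces, were higher. Egr3 rose from 7.56 and 7.63 CPM to 25.7 and 24.1 CPM. Fosl1 rose from 0.196 and 0.359 CPM to 2.12 and 2.40 CPM. Of 17 activation genes, to which Nr4a1 and Egr3 belong, 9 were called higher and 6 lower. Of 22 factors of the AP-1, BATF, IRF and NF-κB families, 11 were called higher and 9 lower. Batf3, a partner of AP-1, rose from 0.491 and 0.988 CPM to 20.6 and 21.9 CPM. Irf8 rose from 47.9 and 39.2 CPM to 405 and 392 CPM.

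Fos and Fosb also belong to a list of genes that rise when tissue is dissociated or cells are handled. Of its 12 members, 9 were called lower in Th1 cultures and 0 higher by edgeR, DESeq2 and limma, with 0 higher at an unadjusted p under 0.05. Their summed level was 4996 and 5608 CPM in naive cells and 1976 and 1804 CPM in Th1 cultures. Dusp1, a phosphatase of this response, fell from 356 and 407 CPM to 32.1 and 26.97 CPM. The part that cell preparation has in the levels of the naive libraries was not tested. Cd69 and Nr4a1 are known to rise with stimulation as well.

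Interferon-stimulated genes split, with guanylate-binding proteins among the risers and several antiviral genes among the fallers. Of 27 interferon-stimulated genes, 13 were called higher and 8 lower (median 0.55). Gbp2, a guanylate-binding protein of cell-autonomous defence, had 85.6 and 74.6 CPM in naive cells and 2515 and 2206 CPM in Th1 cultures (4.88 ± 0.80, edgeR adjusted p = 0.00021). Gbp5, of the same family, rose from 28.6 and 30.00 CPM to 471 and 415 CPM. Usp18, a feedback inhibitor of the interferon receptor, rose from 15.02 and 18.6 CPM to 164 and 146 CPM. Rsad2 (viperin), which blocks viral replication, fell from 10.8 and 11.5 CPM to 3.06 and 2.81 CPM. Oas2, a sensor of double-stranded RNA, fell from 44.4 and 60.5 CPM to 21.99 and 19.2 CPM. For all 5 the groups did not overlap, as for 85.9% of all genes tested. Of 15 genes of antigen processing, 9 were called higher, all by less than 2-fold. Psmb8, a subunit of the immunoproteasome, rose from 276 and 282 CPM to 558 and 538 CPM. H2-K1, a classical MHC class I gene, was the member that fell, from 4531 and 4869.8 CPM to 3271 and 3108 CPM, and 2 members were lower under RLE scaling, library totals, DESeq2 and the fit of these libraries alone.

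The cultures carried the transcripts of dividing cells. Mki67, which encodes the proliferation antigen Ki-67, had 108 and 92.9 CPM in naive cells and 669.5 and 739.6 CPM in Th1 cultures (2.81 ± 0.38, edgeR adjusted p = 1.54e-05). Myc, the regulator of growth in activated T cells, had 61.7 and 74.01 CPM in naive cells and 361 and 361 CPM in Th1 cultures (2.41 ± 0.14, edgeR adjusted p = 1.73e-10). Of 37 DNA replication genes, 34 were called higher and 1 lower (median 1.41). Of 31 mitosis genes, 29 were higher and 1 lower (median 2.98). Both shares stand far above the 34.3% of all genes called higher. Ccne1, the cyclin of S phase entry, rose from 5.10 and 5.57 CPM to 49.6 and 57.7 CPM. Mcm10, a factor of replication start, rose from 4.32 and 4.13 CPM to 41.9 and 45.3 CPM. Uhrf1, which keeps DNA methylation at replication forks, had 21.7 and 19.4 CPM in naive cells and 173 and 183 CPM in Th1 cultures (3.12 ± 0.24, edgeR adjusted p = 4.8e-08).

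The mitosis genes with the steepest rise were low in naive cells. Ccnb1, the cyclin of entry into mitosis, rose from 2.65 and 2.51 CPM to 31.8 and 34.4 CPM. Cenpf, a kinetochore protein, rose from 10.7 and 8.98 CPM to 130.4 and 132 CPM. Ube2c, the ubiquitin-conjugating enzyme of mitotic exit, rose from 8.15 and 8.71 CPM to 105 and 101 CPM. Each was more than 10 times as abundant in both Th1 libraries as in either naive library. Against the direction of its list, Smc4, a condensin subunit, fell from 896 and 834 CPM to 340.4 and 343 CPM. Cdt1, which licenses replication origins, fell from 106 and 117 CPM to 52.3 and 58.6 CPM (-1.01 ± 0.18, edgeR adjusted p = 0.000109). Of 19 cell cycle inhibitors and D cyclins, 10 were called higher and 5 lower. Tob1, held high in resting T cells, fell from 78.7 and 91.1 CPM to 21.1 and 20.6 CPM. Cdkn1a (p21), a brake on the cycle, rose from 14.6 and 13.6 CPM to 223 and 228 CPM (4.00 ± 0.14, edgeR adjusted p = 3.76e-13).

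Promoter sequence was not used by the comparison, and known cell cycle words were counted in the promoters of these lists. In cell cycle genes, E2F factors act at S phase promoters, and CCAAT boxes (bound by NF-Y) together with the cell cycle homology region (CHR) act at G2 and mitosis promoters. RefSeq promoters of GRCm38.p6, from 250 bases before to 50 bases after each start, were searched on both strands for the words TTTCCCGC, TTTGGCGC, TTTCGCGC or TTTGCCGC (E2F), CCAAT, and TTTGAA (CHR). An E2F word was found in 13 of 37 promoters of the 30 of 37 replication genes matched by symbol (35.1%), beside 2.26% of all 32851 promoters. A CCAAT box was found in 24 of 27 promoters of the 25 of 31 mitosis genes matched (88.9%), beside 37.4% of all, and a CHR in 21 of the 27 (77.8%), beside 17.9%. Over all genes the matching was incomplete too. A promoter was found for 1793 of the 2397 genes called at least 2-fold higher and 10020 of the 13069 gene names tested. Genes without a promoter were not searched, so no conclusion is drawn from the lists or from all genes. Among those matched, the promoters of the risers held an E2F word in 3.95%, a CCAAT box in 38.5% and a CHR in 13.7%, close to the 3.81%, 37.3% and 12.04% of the genes tested. The lists were chosen by function, so the words describe the lists and not this change. The promoters of a riser with an E2F word (Uhrf1), the faller among the replication genes (Cdt1) and the mitosis genes named above are shown 5′ to 3′ on the strand of the gene, with every match to a word searched for that gene's list in capitals.
Uhrf1 (chr17:56304063-56304362, plus strand): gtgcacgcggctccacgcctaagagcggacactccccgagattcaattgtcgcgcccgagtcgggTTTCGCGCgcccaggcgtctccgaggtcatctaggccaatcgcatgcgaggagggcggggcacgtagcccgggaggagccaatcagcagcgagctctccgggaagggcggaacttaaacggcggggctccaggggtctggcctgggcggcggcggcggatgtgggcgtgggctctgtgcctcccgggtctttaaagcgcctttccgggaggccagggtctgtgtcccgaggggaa
Cdt1 (chr8:122567765-122568064, plus strand): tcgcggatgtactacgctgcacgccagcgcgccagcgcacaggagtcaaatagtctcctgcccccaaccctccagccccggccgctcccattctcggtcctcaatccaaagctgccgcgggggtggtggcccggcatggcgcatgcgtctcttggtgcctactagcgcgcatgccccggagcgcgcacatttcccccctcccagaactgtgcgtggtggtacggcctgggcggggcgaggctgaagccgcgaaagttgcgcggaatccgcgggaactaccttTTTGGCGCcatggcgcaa
Cenpf (chr1:189688037-189688336, minus strand): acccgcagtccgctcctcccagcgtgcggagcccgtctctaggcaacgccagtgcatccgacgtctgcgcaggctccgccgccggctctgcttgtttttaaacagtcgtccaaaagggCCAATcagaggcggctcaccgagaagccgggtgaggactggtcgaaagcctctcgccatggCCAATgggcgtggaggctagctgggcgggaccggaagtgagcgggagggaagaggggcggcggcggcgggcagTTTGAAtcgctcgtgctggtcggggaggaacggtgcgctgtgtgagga
Ccnb1 (chr13:100786437-100786736, minus strand): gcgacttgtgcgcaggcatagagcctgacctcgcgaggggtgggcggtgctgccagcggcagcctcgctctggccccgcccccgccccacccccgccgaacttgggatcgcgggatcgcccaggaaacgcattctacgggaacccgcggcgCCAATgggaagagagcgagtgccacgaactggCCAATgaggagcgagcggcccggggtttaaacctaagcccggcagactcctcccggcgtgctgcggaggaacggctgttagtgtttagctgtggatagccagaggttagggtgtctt
Ube2c (chr2:164769679-164769978, plus strand): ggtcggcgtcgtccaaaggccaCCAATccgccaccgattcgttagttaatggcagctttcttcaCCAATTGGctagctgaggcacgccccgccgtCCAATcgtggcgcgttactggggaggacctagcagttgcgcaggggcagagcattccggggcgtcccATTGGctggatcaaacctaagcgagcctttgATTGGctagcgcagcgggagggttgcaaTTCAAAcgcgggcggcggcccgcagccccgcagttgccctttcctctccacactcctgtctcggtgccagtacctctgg
Uhrf1 holds its E2F word upstream of the start in the promoter shown and none in its other promoter of the table, and Cdt1, which fell, holds one within its first transcribed bases. The promoters of the steep risers Mcm10, Ccne1 and Rrm2 hold none of the E2F words in this window. Cenpf has CCAAT boxes and a CHR, Ccnb1 has CCAAT boxes and no CHR word in this window, and Ube2c has 6 CCAAT matches, 2 of which overlap on opposite strands, and a CHR.

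Genes of cell death and of the p53 response moved in both directions. Of 17 p53 targets, 9 were called higher and 5 lower. Phlda3, an inhibitor of AKT, rose from 3.53 and 3.41 CPM to 23.9 and 25.98 CPM. Of 16 BCL2 family genes, 10 were higher and 5 lower, or 3 lower without naive replicate 1 or Th1 replicate 2. Bcl2l1, which encodes the survival protein BCL-XL, rose from 31.02 and 35.7 CPM to 100.1 and 89.4 CPM. Bak1, which opens the outer mitochondrial membrane, rose from 29.9 and 32.6 CPM to 109.8 and 105 CPM. Bbc3 (PUMA), which promotes death, fell from 70.3 and 104 CPM to 20.7 and 21.2 CPM. Genes that promote death thus stood among both the risers and the fallers.

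Most genes of glycolysis, the pathway on which dividing T cells draw, rose. Of 20 glycolysis genes, 17 were called higher and 1 lower (median 2.37), and their summed level was 2617 and 2697 CPM in naive cells and 14532 and 14940 CPM in Th1 cultures. Slc16a3, the lactate exporter, had 5.01 and 6.38 CPM in naive cells and 501 and 531 CPM in Th1 cultures (6.49 ± 0.12, edgeR adjusted p = 2.85e-16). Hk2, the hexokinase of proliferating cells, had 10.1 and 8.35 CPM in naive cells and 264 and 243 CPM in Th1 cultures (4.78 ± 0.23, edgeR adjusted p = 1.09e-10). Tpi1, triose phosphate isomerase, rose from 38.9 and 40.3 CPM to 1222 and 1276 CPM. In these 3 genes both Th1 libraries lay far above both naive ones. Pdk1, which closes the entry of pyruvate into mitochondria, was the member that fell, from 482 and 479.6 CPM to 269.8 and 263 CPM; under RLE scaling and in the fit of these libraries alone 2 glycolysis genes were called lower. Gapdh and Eno1 have many near copies in the genome and their counts are uncertain.

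Lipid synthesis genes rose with them. Of 24 cholesterol genes, 22 were called higher and 0 lower by edgeR, DESeq2 and limma, with 0 lower at an unadjusted p under 0.05 (median 1.87). Hmgcs1, which makes the precursor of mevalonate, had 42.1 and 43.5 CPM in naive cells and 347 and 344 CPM in Th1 cultures (3.01 ± 0.12, edgeR adjusted p = 2.26e-12). Fdft1, the committed enzyme of sterol synthesis, rose from 13.4 and 13.2 CPM to 80.7 and 81.98 CPM. Of the 24 cholesterol genes, 16 had a promoter in the table, so a check over the list is void. The sterol response word TCACNCCAC was in a promoter of 1 of these 16 genes, Hmgcs1, beside 1.44% of all genes with a promoter. Counted by promoters it was in 1 of 19, beside 1.24% of all promoters. No conclusion is drawn from this 1 match. The promoter of Hmgcs1 is shown with that word in capitals, and its CCAAT boxes are left in lower case.
Hmgcs1 (chr13:119690101-119690400, plus strand): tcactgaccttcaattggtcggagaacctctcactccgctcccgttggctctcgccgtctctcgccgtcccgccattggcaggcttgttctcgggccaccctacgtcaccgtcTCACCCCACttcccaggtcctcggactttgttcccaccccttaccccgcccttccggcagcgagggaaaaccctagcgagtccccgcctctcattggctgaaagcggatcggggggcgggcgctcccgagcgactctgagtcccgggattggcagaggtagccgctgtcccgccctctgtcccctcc
Of 13 fatty acid genes, 12 rose and 1 fell. Scd1, which desaturates fatty acids, rose from 2.16 and 1.17 CPM to 192 and 177 CPM. Fads2, which desaturates polyunsaturated fatty acids, rose from 0.982 and 0.719 CPM to 71.8 and 79.7 CPM. Acss2, which makes acetyl-CoA from acetate, was the member that fell, from 95.4 and 95.7 CPM to 43.2 and 43.2 CPM.

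Amino acid and one-carbon genes changed in part. Of 23 genes of serine, one-carbon and nucleotide synthesis, 9 were called higher and 3 lower; 1 was lower without naive replicate 2 or Th1 replicate 2, and 6 in the fit of these libraries alone. Mthfd2, a mitochondrial folate enzyme, rose from 37.4 and 38.1 CPM to 105 and 109.6 CPM. Impdh1, of guanine synthesis, fell from 200.2 and 216 CPM to 123 and 127 CPM. Of 20 amino acid transporters and ATF4 targets, 11 rose and 4 fell. Asns, asparagine synthetase, rose from 1.96 and 1.89 CPM to 24.2 and 25.1 CPM. Vldlr, a lipoprotein receptor that ATF4 can induce, had 0 and 0.0898 CPM in naive cells and 46.1 and 46.3 CPM in Th1 cultures (edgeR adjusted p = 9.33e-14), with 1 count in naive cells in all. Slc38a2, a glutamine carrier, fell from 672 and 722 CPM to 188 and 185 CPM. Of 20 aminoacyl-tRNA synthetases, 13 were called higher and 1 lower, the latter lost without naive replicate 2 or Th1 replicate 1. Aars, which charges alanine tRNA, rose from 85.02 and 100.1 CPM to 208 and 215 CPM.

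Genes that build ribosomes went the other way in the WT cultures. Of 30 ribosome biogenesis genes, 19 were called lower and 4 higher (median -0.60). The count of higher ones was 1 without each of the 4 libraries in turn and under library totals, and 2 under RLE scaling and DESeq2. Fbl, the methyltransferase of the nucleolus, had 38.5 and 27.03 CPM in naive cells and 10.4 and 8.77 CPM in Th1 cultures (-1.77 ± 0.29, edgeR adjusted p = 5.53e-05). Gnl3 (nucleostemin) fell from 144 and 123 CPM to 43.8 and 48.4 CPM. Both lay lower in both Th1 libraries. Of 83 tested genes of cytosolic ribosomal proteins, 42 were called lower and 7 higher (3 without naive replicate 1), with a median of -0.28 and a summed level of 26213 and 26645 CPM in naive cells and 23994 and 23605 CPM in Th1 cultures. Most of these genes have near copies elsewhere, so reads lost as multimapping make their levels uncertain. From naive to Th1 in KO cells, the median was 0.33 for ribosome biogenesis genes and 0.03 for cytosolic ribosomal proteins. These list medians were thus below 0 in WT and not in KO. Under RLE scaling the median of all genes moved to -0.03. The medians of the ribosomal lists were not taken under that scaling, so the part of scaling in them was not tested.

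Most nuclear genes of the respiratory chain rose, while most mitochondrially encoded genes that could be tested fell. Of 74 nuclear genes of the respiratory chain, 48 were called higher and 4 lower (2 without naive replicate 1 or Th1 replicate 1), with a median of 0.38. Cox5a, of complex IV, rose from 57.04 and 51.8 CPM to 145 and 138 CPM. Of the 13 mitochondrially encoded protein genes, 7 could be tested. The other 6 (mt-Co2, mt-Co3, mt-Atp6, mt-Atp8, mt-Nd4l and mt-Nd3) are listed at 0 or 1 count in all 4 libraries, although every cell uses these genes, so their level was not measured. Of the 7 tested, 6 were called lower and 0 higher by edgeR, DESeq2 and limma, with 0 higher at an unadjusted p under 0.05. mt-Cytb, of complex III, had 4401 and 4104 CPM in naive cells and 2232 and 2345 CPM in Th1 cultures (-0.89 ± 0.11, edgeR adjusted p = 1.41e-06). mt-Nd2, of complex I, fell from 1744 and 1541 CPM to 727 and 762 CPM. Of 75 tested genes of mitochondrial ribosomal proteins, 35 were higher and 13 lower. Of 21 genes of the TCA cycle, 10 were higher and 5 lower, none of the higher ones by 2-fold.

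Most proteasome genes rose, by small steps, and more autophagy genes fell than rose. Of 40 proteasome genes, 30 were called higher and 1 lower (median 0.48); the lower one, Psma3, was not called without naive replicate 1 or Th1 replicate 2. Psmb2, of the core particle, rose from 63.2 and 61.3 CPM to 134 and 132 CPM. Of 20 endoplasmic reticulum genes, 14 rose and 4 fell. Ern1, which encodes the stress sensor IRE1, rose from 22.8 and 23.4 CPM to 94.3 and 78.6 CPM. Atf6, another sensor, rose from 32.2 and 31.7 CPM to 117 and 114 CPM. The chaperone gene Dnajb9 fell from 139.8 and 125 CPM to 10.2 and 10.01 CPM (-3.71 ± 0.16, edgeR adjusted p = 4.31e-12). Of 18 FOXO and autophagy genes, 10 were lower and 5 higher. Map1lc3b, of the autophagosome membrane, fell from 262 and 261 CPM to 77.8 and 78.4 CPM. Txnip, which restrains glucose uptake, fell from 2390.3 and 2721 CPM to 849 and 757 CPM. Bnip3, a mitophagy receptor that low oxygen induces, rose from 2.26 and 2.78 CPM to 105 and 103 CPM (5.35 ± 0.13, edgeR adjusted p = 6.31e-15).

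Enzymes that modify chromatin moved in both directions. Dot1l, the gene floxed in the KO mice (chr10:80755206-80795461, plus strand), had 163 and 171 CPM in naive cells and 176 and 186 CPM in Th1 cultures and was not called (0.11 ± 0.11, edgeR adjusted p = 0.375). Of 26 histone methylation enzymes, 11 were called lower and 3 higher (6 higher in the fit of these libraries alone), beside 34.3% of all genes called higher. Ezh2, the methyltransferase of lysine 27 on histone H3, rose from 57.2 and 57.8 CPM to 165 and 156 CPM. Whsc1 (NSD2), which methylates lysine 36, rose from 64.9 and 62.2 CPM to 222 and 241 CPM. Kdm6b, a demethylase of lysine 27, fell from 379 and 438 CPM to 77.4 and 76.3 CPM (-2.41 ± 0.11, edgeR adjusted p = 8.82e-12). Of 14 tested partners of DOT1L, 4 were higher and 5 lower (3 lower without a filter on low counts, without naive replicate 2 or without Th1 replicate 1). With all libraries, the shares of these partners were near those over all genes. Ell2, an elongation factor, rose from 8.93 and 6.20 CPM to 41.9 and 39.6 CPM. Aff1, a scaffold of elongation complexes, fell from 213 and 224 CPM to 121 and 110.2 CPM. Tet1, which oxidises methylated cytosine, fell from 50.2 and 49.04 CPM to 15.9 and 14.3 CPM.

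**Figure D3:**
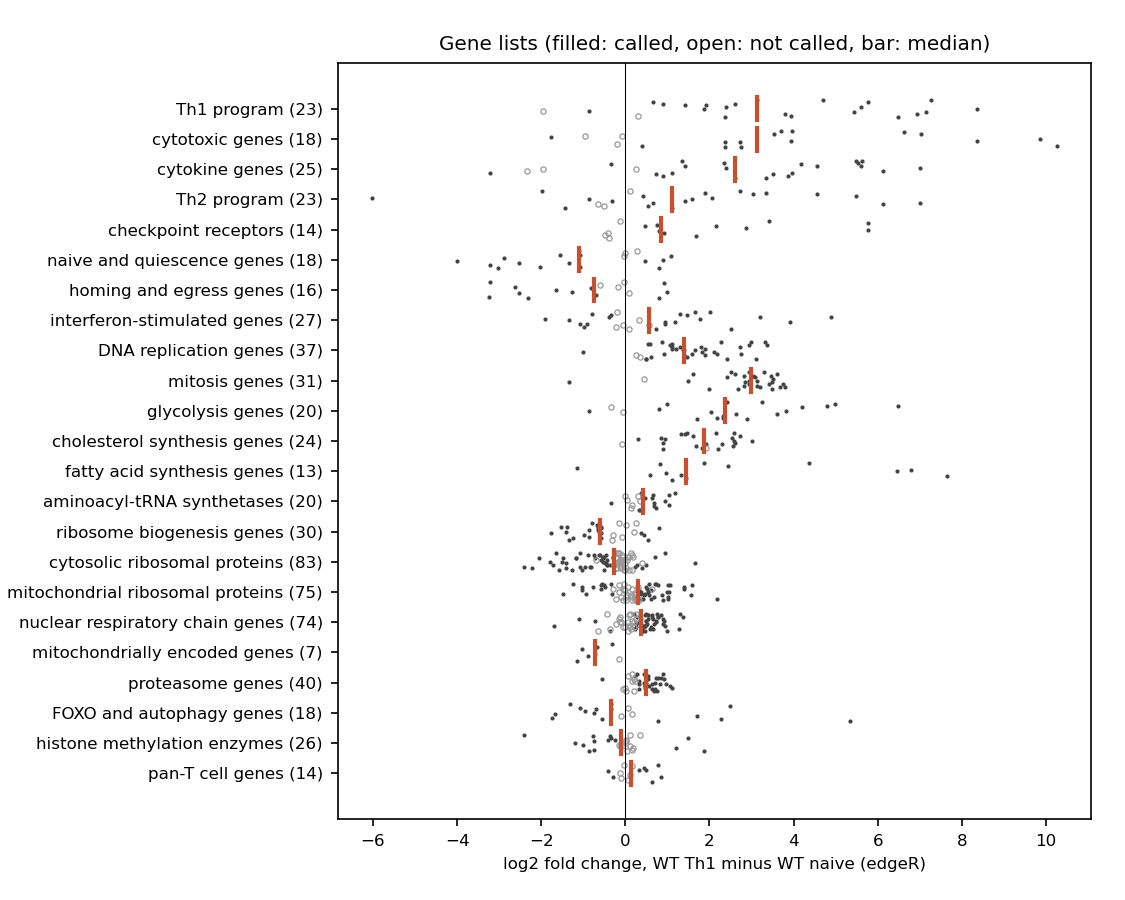
Log2 fold change, WT Th1 minus WT naive, of each tested member of 23 gene lists, with the number of tested members in parentheses, filled points for called genes, open circles for genes not called and a red bar at the list's median. The medians of the Th1 program (3.13), cytotoxic genes (3.14) and mitosis genes (2.98) lie far above the 0.0037 of all genes tested, and that of naive and quiescence genes (-1.10) lies below.

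Per kilobase of deposited gene length, the leading genes differed between the groups, among genes with counts. The mitochondrial genes listed at 0 or 1 count have no place in this order. In naive cells mt-Co1, mt-Cytb and mt-Nd1 led with 4706, 3717 and 2430.1 CPM per kilobase. In Th1 cultures mt-Co1 still led with 3786 CPM per kilobase, followed by Tmsb4x (thymosin β4, which binds actin) with 3225 and Gzmb with 2949.9. Actb, β-actin, rose from 651 to 1691 CPM per kilobase. Ly6a, the interferon-responsive surface protein Sca-1, rose from 109 to 2026. Its libraries held 127 and 135 CPM in naive cells and 2482 and 2400 CPM in Th1 cultures (4.22 ± 0.12, edgeR adjusted p = 4.94e-14). B2m, the light chain of MHC class I, was high in both groups, with 2084 and 2329 CPM per kilobase, and was not called.

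Among the steepest risers, taken from genes whose average log2 CPM was 3 or more, were genes little known from T cells. Serpinb5, which encodes the serpin maspin, was at 0 in both naive libraries and at 149 and 137 CPM in Th1 cultures, at least 1014-fold higher with naive cells set at 3 counts. Moxd1, related to monooxygenases, was also at 0 in naive cells and reached 44.5 and 40.1 CPM, at least 300.5-fold higher. Slc17a6, a vesicular glutamate transporter, reached 34.05 and 33.3 CPM from 0, at least 239-fold higher. Ly6g, usually a neutrophil surface marker, had 0.0982 and 0.0898 CPM in naive cells and 221 and 249.7 CPM in Th1 cultures (edgeR adjusted p = 1.57e-09), with 2 counts in naive cells in all; it belongs to a family of similar genes. In all, 286 tested genes were at 0 in both naive libraries and 235 at 0 in both Th1 libraries, of which 45 and 94 had a mean of at least 1 CPM in the other group.

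The steepest fallers were genes of macrophages and red blood cells, with 0 counts in Th1 cultures. Slc40a1, the iron exporter ferroportin, had 147 and 121 CPM in naive cells, at least 1065-fold lower in Th1 cultures. C1qa, a complement gene of macrophages, had 66.95 and 54.9 CPM in naive cells, at least 482-fold lower in the cultures. Of 13 tested myeloid and dendritic cell markers, 9 were called lower and 1 higher, and their sum was 515 and 382 CPM in naive cells and 32.4 and 29.6 CPM in Th1 cultures. Csf1r, the defining receptor of macrophages, had 189.7 and 155 CPM in naive cells and 0.679 and 0.0827 CPM in Th1 cultures (-8.79 ± 0.49, edgeR adjusted p = 1.73e-09). S100a8 and Siglech, of neutrophils and plasmacytoid dendritic cells, were at 0 in both Th1 libraries. All 10 erythroid and platelet markers were called lower, with sums of 341 and 219.5 CPM in naive cells and 8.58 and 7.36 CPM in Th1 cultures; the globin genes among them have near copies. Alas2, Slc4a1 and the α-globin genes were at 0 in both Th1 libraries. The part of these cells in the fall of genes that they share with T cells was not tested. Itgam, the myeloid marker that rose, went from 3.24 and 3.59 CPM to 17.9 and 16.05 CPM.

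Markers of other lymphocytes and of mast cells moved less uniformly. Of 6 NK cell markers, 4 were called lower, with sums of 57.7 and 41.3 CPM in naive cells and 20.97 and 22.3 CPM in Th1 cultures. Ncr1, the defining NK receptor, fell from 8.25 and 5.21 CPM to 0.679 and 0.91 CPM. Klre1 was the NK marker called higher, which was lost without naive replicate 2 or Th1 replicate 2. B cell markers summed to 27.6 and 21.6 CPM in naive cells and 36.6 and 23.00 CPM in Th1 cultures, with overlap between the groups. Of 10, 1 was called higher, a call lost without either naive library or Th1 replicate 1, and 1 lower, lost without either naive library or Th1 replicate 2. In the fit of these libraries alone, and likewise with the replicate block, 3 B cell markers were higher and 2 lower, and with limma 0 were higher. In the fit of these libraries alone 2 NK markers were higher. Cd8a, of CD8 T cells, rose from 0.884 and 0.359 CPM to 8.41 and 12.2 CPM, while Cd8b1, its partner chain, had 14.4 and 15.6 CPM in naive cells and 13.5 and 13.7 CPM in Th1 cultures and was not called. Of 12 mast cell and basophil genes, 6 were higher and 1 lower, with sums of 69.6 and 36.6 CPM in naive cells and 204 and 155 CPM in Th1 cultures. Cpa3, a mast cell protease, rose from 6.18 and 3.05 CPM to 74.7 and 57.2 CPM. Fcer1a, a chain of the IgE receptor, rose from 1.18 and 0.269 CPM to 14.1 and 8.11 CPM. Il13, which such cells also make, rose in the same libraries, and the part of these cells in its rise was not tested.

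**Figure D4:**
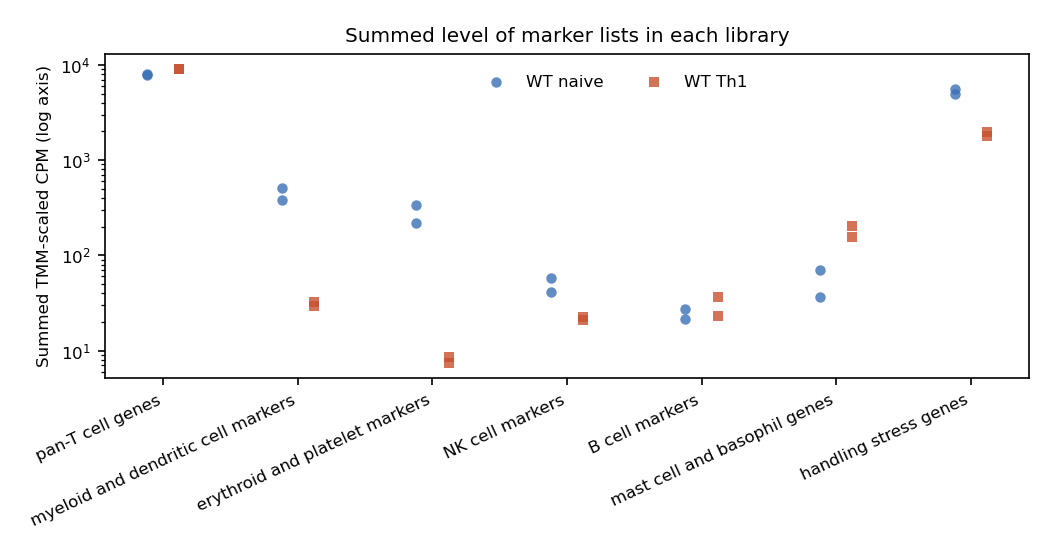
Summed TMM-scaled CPM on a log axis of 7 marker lists in each library, with blue circles for the 2 WT naive libraries and red squares for the 2 WT Th1 libraries. Myeloid and erythroid sums are more than 10 times lower in both Th1 libraries, pan-T sums lie between 7828 and 9108 CPM in all 4, and mast cell and basophil sums are higher in both Th1 libraries.

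The other polarised culture had the same length and stimulation, and the Th1 libraries were compared with those of WT Th2 cultures. This comparison uses the same Th1 libraries, so its values stand beside those against naive cells and do not add independent support. It called 6973 genes (53.3%), 3402 higher in Th1 (26%) and 3571 lower (27.3%). Of the 2397 genes called at least 2-fold higher in Th1 than naive, 855 were called higher in Th1 than Th2, 713 lower, and 829 neither. Of the 1959 called at least 2-fold lower, 285 were higher in Th1 than Th2, 580 lower and 1094 neither. Ifng had 20.8 and 26.9 CPM in Th2 cultures, Th1 minus Th2 4.91 ± 0.30 on the log2 scale (edgeR adjusted p = 1.24e-08). Tbx21 had 19.98 and 16.6 CPM in Th2 cultures (3.93 ± 0.15, edgeR adjusted p = 7.52e-12), close to its naive level.

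Other genes that rose from the naive level stood in both cultures. Gzmb had 1314 and 1699 CPM in Th2 cultures, below Th1 and far above naive cells. Il12rb2 had 310.2 and 340.3 CPM there, also between the other groups. Il21 had 197 and 138 CPM in Th2 cultures and was not called between the cultures (Th1 minus Th2 0.06 ± 0.18, edgeR adjusted p = 0.803). Scd1 had 147 and 160 CPM and was not called either (0.26 ± 0.18, edgeR adjusted p = 0.239). Interferon-stimulated genes were called higher in Th1 than Th2 for 25 of 27, and naive and quiescence genes for 16 of 18. Ccr7 had 215 and 275 CPM in Th2 cultures, below both the Th1 and the naive libraries. In the other direction, glycolysis genes were lower in Th1 than Th2 for 19 of 20, amino acid and ATF4 genes for 17 of 20, and cytosolic ribosomal protein genes for 67 of 83. Asns reached 130.2 and 154 CPM in Th2 cultures. Hk2 reached 363 and 356 CPM there. Serpinb5 was near 0 in Th2 cultures as well, with 0.547 and 0.827 CPM.

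**Figure D5:**
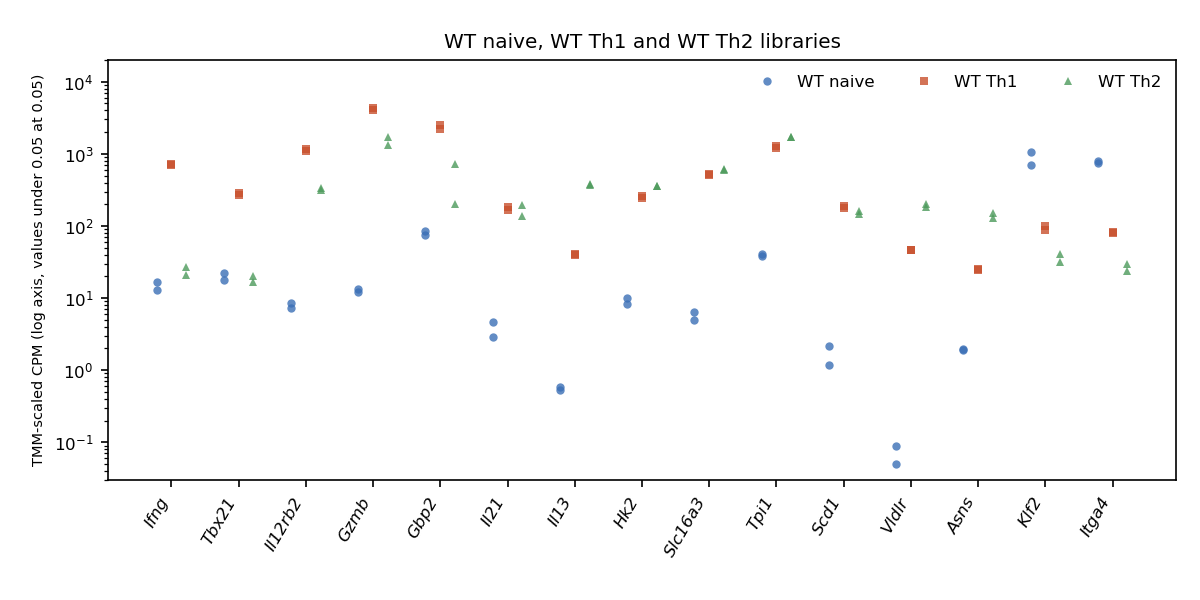
TMM-scaled CPM on a log axis for 15 genes in the 2 WT naive (blue circles), 2 WT Th1 (red squares) and 2 WT Th2 libraries (green triangles), with values under 0.05 drawn at 0.05. Ifng and Tbx21 are high in the Th1 libraries and low in both other groups, Gzmb and Il12rb2 are high in both cultures, and Il13, Vldlr and Asns are highest in Th2.

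The change from naive to Th1 was also measured in cells of KO mice, whose 4 libraries share none with the WT comparison. Dot1l had 146 and 166 CPM in KO naive cells and 131 and 146 CPM in KO Th1 cultures, near the WT levels; counts per gene do not separate the floxed exons, so they do not check the deletion. Cd4 had 409 and 398 CPM in KO naive cells and 212 and 199 CPM in KO Th1 cultures, below all 4 WT libraries. Some macrophage and red blood cell genes were higher in KO than WT naive cells. Slc40a1 had 406 and 205 CPM in KO naive cells, beside 147 and 121 CPM in WT. C1qa had 170 and 79.4 CPM, beside 66.95 and 54.9 CPM, and Hba-a1 197 and 49.4 CPM, beside 44.4 and 31.4 CPM. The part of these differences in the KO values was not tested. From naive to Th1, 9278 genes (71%) were called in KO, 4729 higher (36.2%) and 4549 lower (34.8%); a 2-fold change was called for 18.9% upward and 16.9% downward. Of the 2397 genes at least 2-fold higher in WT, 1765 were also called at least 2-fold higher in KO, which is 73.6% of the WT genes and 71.6% of the 2466 KO genes. Of the 1959 at least 2-fold lower in WT, 1389 were so in KO, 70.9% of the WT genes and 62.9% of the 2208 KO genes. In the opposite direction, 31 and 27 were called in KO. Where the change itself was compared, 3599 genes (27.5%) differed between KO and WT, 1395 upward (10.7%) and 2204 downward (16.9%) in KO relative to WT, and these included 725 and 598 of the 2-fold genes of WT.

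Ifng rose in KO from 51.9 and 57.4 CPM to 2559 and 1658 CPM, and its change was not called different from that in WT (KO minus WT -0.33 ± 0.39, edgeR adjusted p = 0.578). Tbx21 rose from 45.1 and 41.4 CPM to 200 and 201 CPM in KO, a smaller change than in WT (KO minus WT -1.59 ± 0.20, edgeR adjusted p = 2.85e-05). The KO naive libraries started above the WT naive ones for both genes.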

How the data were processed

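RNA-seq counts per gene were used as deposited. Per the file headers, the authors counted reads with featureCounts 1.5.3 against GRCm38 Ensembl 84 with strand setting 2; multimapping reads stand as unassigned in the deposited summary. The aligner is not given in the sources used here. Gene lengths are those deposited with the counts. The 22048 protein-coding genes of 20 libraries (10 groups of 2) were filtered with edgeR 4.0.16 (filterByExpr, 10 counts, 15 in total), scaled by TMM and fitted with 1 mean per group by robust quasi-likelihood in R 4.3.3, leaving 13072 genes and 10 residual degrees of freedom. The code was tested on simulated data. DESeq2 1.42.0 and limma 3.58.1 (voom), other scalings, filters and fits, and leaving out each library were alternatives. Genes named are the marker genes, the 8 highest and lowest changes, up to 4 called members of each list in its main direction and 2 in the other, genes at 0 in a group, and the 8 highest per kilobase. Outside this rule, Cd8b1, S100a8, Slc4a1 and non-coding genes were named after their values were seen; some genes that the rule names are not reported here. The comparison and lists were chosen with earlier results of these data known.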

Additional observations from a re-analysis of the deposited data

Results flagged for a closer look

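The change from naive to Th1 differed between KO and WT for 3599 genes by a test of the difference itself (edgeR, adjusted p under 0.05), and these included genes used as markers above. Differences are KO change minus WT change, on the log2 scale. Tbx21 rose less in KO, by -1.59 (edgeR adjusted p = 2.85e-05). Myc rose less as well, by -0.6711 (edgeR adjusted p = 0.0135), while Il2ra rose more, by 1.596 (edgeR adjusted p = 4.7e-06). Cd4, by which the cells were isolated, stood at 409 and 398 CPM in KO naive cells and 212 and 199 CPM in KO Th1 cultures, a difference from the WT change of -1.033 (edgeR adjusted p = 0.000184). Ccr7, a naive surface marker that was not called in WT, differed by -1.377 (edgeR adjusted p = 0.000221). Ccr7 had 332 and 472 CPM in KO naive cells and 144 and 157 CPM in KO Th1 cultures.

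Genes of other classes were fitted together with the protein-coding genes, and over all 15938 genes of that fit 32.5% were called higher and 31.3% lower. Of 347 lincRNA genes tested, 96 (27.7%) were called higher in Th1 cultures and 95 (27.4%) lower. Of 267 antisense genes, 68 (25.5%) were higher and 72 (27%) lower, so neither class lay above the share over all genes. Of 69 snoRNA genes, 48 (69.6%) were lower (median log2 fold change -1.63). Of 45 sense intronic genes, 21 (46.7%) were lower and 6 (13.3%) higher. The source of the reads in these 2 classes was not tested. Of 112 immunoglobulin V genes, 67 (59.8%) were lower (median -4.52), and of 12 immunoglobulin constant genes, 9 (75%) were lower (median -3.66). The B cell markers summed to 27.6 and 21.6 CPM in naive cells and 36.6 and 23.00 CPM in Th1 cultures. The 3 immunoglobulin genes planned for that list were not among the protein-coding genes, so the sum holds none of them. The cells that carried these transcripts were not tested.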

How the results depend on the processing

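The count of genes called between WT Th1 and WT naive was 8791. It lay between 8375 (DESeq2) and 9342 (these 4 libraries alone) over changes of scaling, filter, tool and fit within protein-coding genes, was 10164 with all gene classes, and lay between 7689 and 7857 when any library was left out. Each fit with a library left out has a lone library in 1 group, which is assumed to vary like the others. A test against a 2-fold change (edgeR's glmTreat) called 1197 genes at least 2-fold lower, beside 1959, and 1734 at least 2-fold higher, beside 2397, since it asks that the change exceed 2-fold beyond its error. The share of calls that were higher ran from 48.2% to 51.7%. Left-out libraries gave 5567 to 5825 calls between Th1 and Th2, 8391 to 8570 in KO, and 2536 to 3079 for KO against WT changes.

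The labels number the replicates without saying that a number marks a shared animal or day, and 2 libraries a group are too few to show pairs, so the numbers were not taken as pairs. Deviations of same-numbered libraries had a correlation of 0.0595 for WT naive with WT Th1, 0.212 for WT Th1 with WT Th2, 0.238 for KO naive with KO Th1, 0.295 for WT naive with KO naive and 0.12 for WT Th1 with KO Th1. WT Th1 had 0.27 with WT Th1 under SGC0649 and 0.332 with WT Th1 under SGC0946. Over all pairs of groups the values ran from -0.174 (WT naive with WT Th1 under SGC0649) to 0.734 (WT Th2 under SGC0649 with WT Th2 under SGC0946). With a replicate block, 8981 genes were called, 8776 of them among the 8791; 7273 were called between Th1 and Th2 beside 6973, 9459 in KO beside 9278, and 3975 for KO against WT changes beside 3599.

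Of 3619 values of the 302 named genes under these alternatives, 3530 kept direction and call, 77 lost the call, 2 gained one and 10 changed sign. The sign changes were in genes near 0. Il7r was -0.0442 under RLE scaling, -0.0211 with library totals, -0.0031 with the replicate block, -0.0013 with limma voom, -0.0434 with DESeq2 and -0.0014 in these libraries alone. With a library left out, Il7r ran from -0.0703 to 0.0745, Ccr7 from -0.14 to 0.0711 and Cd44 from -0.0353 to 0.226. Of 1320 counts of called list members under alternatives, 1255 stayed within 1.5 times. Genes with few counts in a group have no firm fold change at this depth.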

Other observations

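Genes of non-coding classes, named here after their values were seen, also differed between WT Th1 and WT naive. H19, an imprinted lincRNA, had 0 and 0.0851 CPM in naive cells and 4.92 and 4.47 CPM in Th1 cultures, with 1 count in naive cells in all. Trp53cor1 (lincRNA-p21), a target of p53, had 0.277 and 0.0851 CPM in naive cells and 1.53 and 2.2 CPM in Th1 cultures, a log2 fold change of 3.32 ± 0.51 (edgeR adjusted p = 1.85e-05), beside the rise of Cdkn1a. Mir17hg, the host transcript of a microRNA cluster linked to proliferation, fell from 44.5 and 36.7 CPM to 8.88 and 10.6 CPM, a log2 fold change of -2.06 ± 0.18 (edgeR adjusted p = 2.81e-08); the genes of replication and mitosis rose in the same libraries. Snhg20, the host of a small nucleolar RNA, fell from 20.9 and 23.8 CPM to 10.7 and 10.3 CPM. The groups did not overlap for any of these genes, nor for 85.9% of the protein-coding genes tested.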
